A study of Homo sapiens with 4 samples.

Results

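The genes described here are the ligands and receptors of the TNF superfamily in MOLM-14 cells given DZNep or its solvent. They were chosen by name from the platform annotation: a probe set counted where it carried a single gene symbol that begins TNFSF or TNFRSF with a number, or that is TNF, LTA, LTB, LTBR, FAS, FASLG, CD27, CD70 or CD40. Where a gene had several probe sets, the one with the highest mean log2 intensity was read. The choice gave 44 probe sets and 37 genes out of 18377 genes measured. The rule itself uses no measured difference between the groups, but it was set with earlier results of these data known. By role they are 14 ligands, 6 death receptors, 2 decoy receptors and 15 other receptors.

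MOLM-14 is an established line from an acute myeloid leukemia with monocytic features, known to carry a KMT2A fusion and an internal tandem duplication of FLT3. DZNep (3-deazaneplanocin A) at 2 µM was given to 2 samples and DMSO alone to 2 samples, all collected after 24 h and each read on 1 Affymetrix whole-transcript array. DZNep blocks S-adenosylhomocysteine hydrolase and so hinders methyltransferases, and it is used to deplete the histone methyltransferase EZH2. The labels call the samples biological replicates but name no separate cultures, so the p-values describe spread among these arrays alone, which may be technical, and all of it comes from 1 cell line.

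Ligands of the TNF superfamily are membrane proteins that assemble as trimers, and many are cut from the surface by proteases. Their receptors signal in 2 main ways. Death receptors carry a cytoplasmic death domain that can recruit FADD and caspase-8 or, for TNFRSF1A, first TRADD and RIPK1. Most others bind TRAF adaptors and activate NF-κB, while decoy receptors bind ligand without passing on a full signal. Monocytes and macrophages are the best known source of TNF itself, and its gene is a textbook target of NF-κB.

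TNF was the 1 gene of the 37 that passed the test, and it rose in DZNep-treated cells. Its log2 intensity was 9.45 and 9.26 on the DZNep arrays, against 7.23 and 7.45 on the DMSO arrays. The groups lay far apart, and the gap between them was many times the gap between arrays of one group. The means were 9.36 ± 0.13 with DZNep and 7.34 ± 0.16 with DMSO (SD, n = 2 arrays each), a 4.04-fold rise (limma, log2 fold change 2.02, SE 0.12, 95% interval 1.76 to 2.27, adjusted p = 3.21e-05). TNF had the number 6 rise among all 18377 genes. The 3 probe sets that carry its name had log2 fold changes of 2.02, 2.02 and 2.02, and on no array did they differ by more than 0.0066 on the log2 scale, so they may not be independent readings. In RNA from a whole culture, more RNA per cell and more cells that express a gene cannot be told apart.

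None of the other 36 members passed the test. The called share was 2.7% (1 of 37), against 10.3% of all genes tested, 3.62% higher and 6.68% lower (limma, adjusted p under 0.05). At an unadjusted p under 0.05 the count was 7 of 37 members, or 18.9%, against 22.2% of all genes. The DZNep arrays did not overlap the DMSO arrays for 16 members, 13 of them higher and 3 lower, which is 43.2%, against 49.7% of all genes (25.9% higher and 23.9% lower). A missed threshold does not show that a gene kept its level, so the intervals matter. For 35 of the 36, the 95% interval of the log2 fold change stayed within a 1.5-fold change either way, and the exception was TNFRSF21. Each interval is for 1 gene alone, and the intensity floor can shrink the folds of dim members such as TNFSF18. For those a narrow interval does not show a steady level. The members' median log2 fold change was 0.10, against 0.02 for all genes, and 29 of 37 values were above 0 (78.4%, against 55.4% of all genes). A like share was above 0 among 32 markers of other cell types (78.1%) and among 27 genes of receptor-proximal signalling (77.8%). Without DMSO replicate 1 the members' median was 0.041, against −0.011 for all genes.

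**Figure D1:**
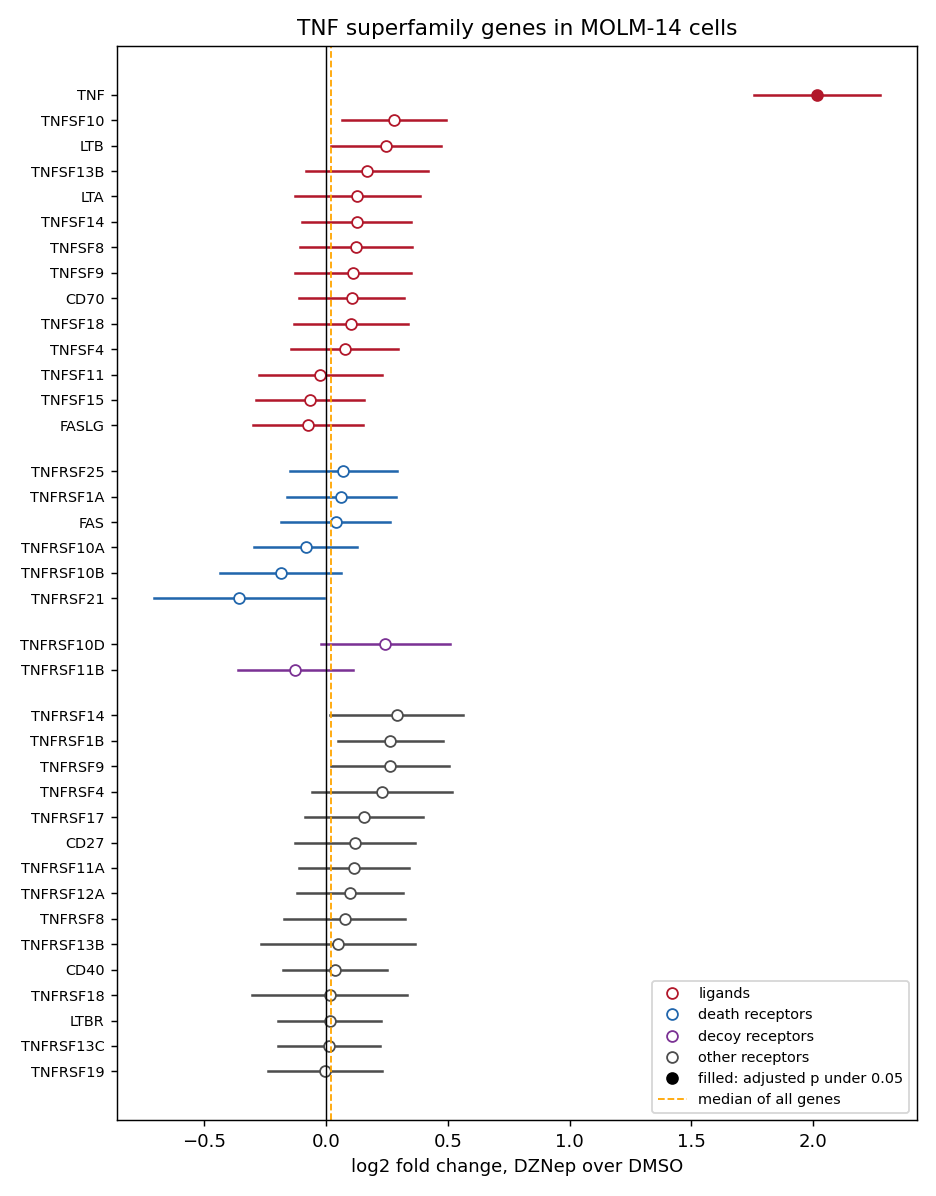
Log2 fold change of DZNep over DMSO (horizontal axis) for the 37 TNF superfamily genes, grouped by role from ligands at the top to other receptors at the bottom. Circles are limma estimates from 2 DZNep and 2 DMSO arrays, filled where the adjusted p is under 0.05, lines are 95% intervals, and the dashed line is the median of all genes at 0.02. TNF stands alone at 2.02, and the other members lie between −0.36 and 0.29.

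TNF lies between LTA, which encodes the secreted ligand lymphotoxin-α, and LTB, which encodes the membrane-bound partner lymphotoxin-β, in 1 stretch of human chromosome 6. RefSeq promoters of these neighbours are shown because the 3 genes sit side by side and only TNF passed the test, and that of NFKBIA, the NF-κB inhibitor whose own gene NF-κB switches on, because it rose with TNF. Each runs 5′ to 3′ on the gene's strand, from 250 bases before to 50 bases after the start, in build GRCh38.p14, and where a gene has several starts the most downstream is used. Capitals mark matches on either strand to the 10-base NF-κB consensus or to the 8-base motif TGANNTCA, a loose form of the cyclic AMP response element, and matches to TATAAA on the gene's strand.
TNF: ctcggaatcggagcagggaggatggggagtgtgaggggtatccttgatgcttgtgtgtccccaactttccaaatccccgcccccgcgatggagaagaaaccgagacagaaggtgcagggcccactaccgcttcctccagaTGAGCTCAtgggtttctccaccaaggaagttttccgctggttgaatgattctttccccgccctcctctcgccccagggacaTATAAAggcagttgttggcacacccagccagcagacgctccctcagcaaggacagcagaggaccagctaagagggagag
LTA: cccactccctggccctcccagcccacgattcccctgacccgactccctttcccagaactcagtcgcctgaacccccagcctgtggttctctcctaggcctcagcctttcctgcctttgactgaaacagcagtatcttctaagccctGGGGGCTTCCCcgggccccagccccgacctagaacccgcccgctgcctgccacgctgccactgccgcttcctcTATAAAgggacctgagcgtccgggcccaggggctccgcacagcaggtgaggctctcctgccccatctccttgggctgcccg
LTB: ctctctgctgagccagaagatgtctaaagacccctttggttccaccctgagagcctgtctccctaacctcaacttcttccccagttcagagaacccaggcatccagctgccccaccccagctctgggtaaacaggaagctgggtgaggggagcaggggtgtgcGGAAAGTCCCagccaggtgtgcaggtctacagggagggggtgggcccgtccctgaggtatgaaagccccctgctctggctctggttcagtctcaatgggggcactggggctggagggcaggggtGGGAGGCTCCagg
NFKBIA: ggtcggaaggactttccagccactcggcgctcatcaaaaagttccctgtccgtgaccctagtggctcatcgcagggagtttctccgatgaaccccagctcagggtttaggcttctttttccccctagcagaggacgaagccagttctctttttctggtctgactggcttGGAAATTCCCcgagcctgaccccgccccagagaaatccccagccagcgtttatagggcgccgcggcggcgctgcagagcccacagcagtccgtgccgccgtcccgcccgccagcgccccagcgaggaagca
The windows are chr6:31575315-31575614 (plus strand) for TNF, chr6:31572039-31572338 (plus strand) for LTA, chr6:31582375-31582674 (minus strand) for LTB and chr14:35404700-35404999 (minus strand) for NFKBIA.

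In the TNF window TGANNTCA matched once, as TGAGCTCA beginning 110 bases before the start, and TATAAA began 29 bases before it. The NF-κB consensus had no exact match there. Sites that depart from it or lie outside the window were not searched, so TNF is not shown to lack an NF-κB site. The consensus had overlapping matches beginning 104 and 103 bases before the start of LTA. It also matched 87 bases before and 38 bases after that of LTB, and 81 bases before that of NFKBIA. Among all 34796 distinct promoters of the same length, 11.3% held the NF-κB consensus, 11.5% TGANNTCA and 11.6% TATAAA, counting both strands. Of the 34 distinct promoters listed for 26 of the members, 32.4% held the NF-κB consensus, 14.7% TGANNTCA and 17.6% TATAAA. A match is a run of letters, and whether any factor bound there was not measured.

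The lymphotoxin genes beside TNF did not share the size of its change. LTB had log2 intensities of 9.09 and 9.04 with DZNep, against 8.74 and 8.90 with DMSO. Its arrays separated by group, but the log2 fold change of 0.25 missed the threshold (limma, 95% interval 0.02 to 0.47, adjusted p = 0.178). LTA read 6.76 and 6.55 with DZNep, against 6.43 and 6.62 with DMSO, groups that overlap (log2 fold change 0.13, adjusted p = 0.602 by limma). Of the 4 probe sets for LTB, 3 gave 0.25, and the fourth, annotated with a different transcript, gave 0.31. For LTA the 3 probe sets gave 0.13, 0.16 and 0.27. Only for the last of these did the arrays separate by group, and it missed the threshold among all probe sets (adjusted p = 0.253 by limma). The upper bounds of both intervals, 0.47 and 0.38, lie below the lower bound of 1.76 for TNF.

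Going further out by position, the 4 nearest protein-coding genes on each side were read where they had a probe set of their own. LST1, a leukocyte membrane protein gene just past LTB, rose, with log2 intensities of 10.25 and 10.29 with DZNep, against 9.49 and 9.60 with DMSO (log2 fold change 0.73 with SE 0.10, adjusted p = 0.0017 by limma). Past it, NCR3, a natural killer cell receptor gene, showed a log2 fold change of 0.13 (adjusted p = 0.558 by limma) and AIF1, a macrophage calcium-binding protein gene, one of −0.27 (adjusted p = 0.138). On the other side, NFKBIL1 had one of 0.27 (adjusted p = 0.112). These genes were picked for their place, after the values of TNF were known.

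**Figure D2:**
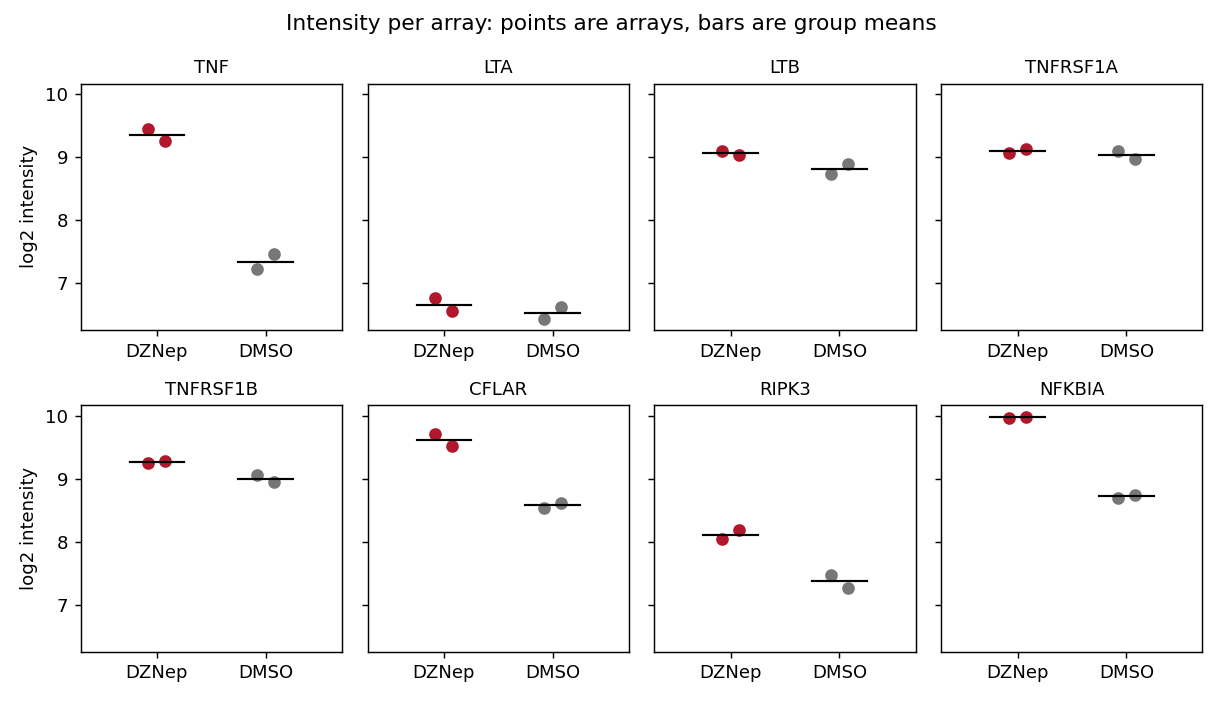
Log2 intensity on each array (vertical axis) for TNF, its neighbours LTA and LTB, its receptors TNFRSF1A and TNFRSF1B, and the signalling genes CFLAR, RIPK3 and NFKBIA, with DZNep left of DMSO. Points are the 2 arrays of a group and bars their mean. For TNF, CFLAR, RIPK3 and NFKBIA the groups lie clearly apart, while for TNFRSF1A they overlap, and heights cannot be compared between genes because probes differ.

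Among the remaining ligands, TNFSF10 came nearest to the threshold. It encodes TRAIL, which binds TNFRSF10A and TNFRSF10B to trigger apoptosis, and it read 8.02 and 8.04 with DZNep, against 7.80 and 7.71 with DMSO. The arrays separated, and the log2 fold change was 0.28 (limma, SE 0.09, 95% interval 0.07 to 0.49, adjusted p = 0.106). It passed when the dimmest 50% of genes were left out of the test (adjusted p = 0.0449 by limma). Under no other alternative did TNFSF10 pass, and median centring gave 0.25 (adjusted p = 0.212 by limma). TNFSF13B, the B cell survival factor BAFF that myeloid cells make, read 9.48 and 9.26 with DZNep, against 9.13 and 9.27 with DMSO. Its groups overlap, at a log2 fold change of 0.17 (adjusted p = 0.452 by limma). CD70, the ligand of CD27 and a surface antigen of leukemic blasts, read 10.12 and 10.16 with DZNep, against 10.08 and 9.98 with DMSO, at 0.11 (adjusted p = 0.617 by limma). The arrays of TNFSF14, the ligand LIGHT, also separated, at 8.13 and 8.15 with DZNep, against 7.94 and 8.09 with DMSO, at a log2 fold change of 0.13 (adjusted p = 0.546 by limma).

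The costimulatory ligands TNFSF4 (OX40 ligand), TNFSF8 (CD30 ligand), TNFSF9 (4-1BB ligand) and TNFSF18 (GITR ligand) had log2 fold changes from 0.08 to 0.12. Below 0 were TNFSF11, the osteoclast factor RANKL, at −0.02, TNFSF15, the ligand TL1A, at −0.07, and the death ligand FASLG at −0.07. Each of these 7 had groups that overlap and a limma adjusted p of 0.582 or more. Over the 14 ligands, 1 rose and none fell (7.14%, against 10.3% of all genes). The ligands' median log2 fold change was 0.12, which became 0.060 without DMSO replicate 2. Without TNF, the 13 others had a median of 0.11 and a range of −0.07 to 0.28. Some of these ligands were dim: TNFSF18 averaged a log2 intensity of 4.95 ± 0.10 with DZNep and 4.85 ± 0.11 with DMSO (SD, n = 2 arrays each), far under the median gene on any array, at 7.44 to 7.46. The deposited values carry no detection call.

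Of the 6 death receptors, 0 passed the test in either direction by limma, against 10.3% of all genes. At an unadjusted p under 0.05 the count was 1 of the 6 receptors (16.7%, against 22.2% of all genes). Their median log2 fold change was −0.02, and with 1 array left out it lay between −0.062 (without DZNep replicate 2) and −0.0069 (without DZNep replicate 1), with −0.053 without DMSO replicate 2. TNFRSF1A, the receptor through which soluble TNF mainly signals, read 9.07 and 9.14 with DZNep, against 9.10 and 8.97 with DMSO, and the groups overlap (log2 fold change 0.06, limma, 95% interval −0.16 to 0.29, adjusted p = 0.795). FAS, the receptor of FASLG, read 8.07 and 8.15 with DZNep, against 8.14 and 8.003 with DMSO, again overlapping (0.04, adjusted p = 0.878 by limma). TNFRSF25, the receptor of TNFSF15, showed a log2 fold change of 0.07 (adjusted p = 0.765 by limma).

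Both death receptors of TRAIL read lower on each DZNep array than on either DMSO array, by small amounts. Arrays separated in this direction for 23.9% of all genes. TNFRSF10B read 10.18 and 10.15 with DZNep, against 10.48 and 10.22 with DMSO (log2 fold change −0.19, limma, 95% interval −0.43 to 0.06, adjusted p = 0.389). For TNFRSF10A the values were 8.52 and 8.61 with DZNep, against 8.64 and 8.66 with DMSO (−0.08, adjusted p = 0.703 by limma). TNFRSF21, or DR6, an orphan receptor best known from nerve and T cells, had the lowest value of the family. It read 7.66 and 7.88 with DZNep, against 8.37 and 7.88 with DMSO, so that DZNep replicate 2 and DMSO replicate 2 nearly met. The log2 fold change of −0.36 missed the threshold (SE 0.15, adjusted p = 0.212 by limma). DMSO replicate 1 set its size: the value was −0.11 without that array (adjusted p = 0.638 by limma) and −0.60 without DMSO replicate 2 (adjusted p = 0.0226).

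The decoy receptors measured were TNFRSF10D, which binds TRAIL but has a shortened death domain, and TNFRSF11B, or osteoprotegerin, which captures RANKL. TNFRSF10D read 9.98 and 10.18 with DZNep, against 9.95 and 9.71 with DMSO (log2 fold change 0.24, limma, 95% interval −0.02 to 0.51, adjusted p = 0.269). Its arrays separated only narrowly. TNFRSF11B showed a log2 fold change of −0.13 (adjusted p = 0.578 by limma). Between them, 0 of 2 passed, and neither had an unadjusted p under 0.05, against 10.3% and 22.2% of all genes.

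None of the 15 other receptors passed by limma, against 10.3% of all genes. At an unadjusted p under 0.05 the count was 3 (20%, against 22.2% of all genes). The receptors' median log2 fold change was 0.10. That median was 0.032 without DMSO replicate 1, 0.057 without DZNep replicate 1 and 0.21 without DMSO replicate 2. TNFRSF1B, the second TNF receptor, found mainly on blood cells, read 9.25 and 9.28 with DZNep, against 9.06 and 8.95 with DMSO. These arrays separate, at a log2 fold change of 0.26 (limma, 95% interval 0.05 to 0.48, adjusted p = 0.13), which passed after quantile normalization (0.32, adjusted p = 0.0411). Under no other alternative did TNFRSF1B pass, and median centring gave 0.23 (adjusted p = 0.255 by limma). TNFRSF14, the receptor of LIGHT, read 7.37 and 7.56 with DZNep, against 7.04 and 7.31 with DMSO (0.29, adjusted p = 0.192 by limma). TNFRSF9, the T cell costimulatory receptor 4-1BB, read 6.51 and 6.50 with DZNep, against 6.12 and 6.36 with DMSO (0.26, adjusted p = 0.186 by limma). For TNFRSF4, or OX40, the values were 8.15 and 8.13 with DZNep, against 7.72 and 8.10 with DMSO (0.23, adjusted p = 0.356 by limma). Without DMSO replicate 2, TNFRSF9 (log2 fold change 0.38, adjusted p = 0.04 by limma) and TNFRSF4 (0.42, adjusted p = 0.0318) passed. Without DMSO replicate 1 the value of TNFRSF4 was 0.04.

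The remaining 11 receptors of this kind lay between −0.00 and 0.16. TNFRSF17, TNFRSF13B and TNFRSF13C, the receptors of BAFF and its relative APRIL on B and plasma cells, had log2 fold changes of 0.16, 0.05 and 0.01. CD40, the receptor by which T cells activate B cells and monocytes, read 7.17 and 7.13 with DZNep, against 7.15 and 7.07 with DMSO (0.04, adjusted p = 0.885 by limma). LTBR, the lymphotoxin-β receptor that switches on the noncanonical NF-κB pathway, had 0.01, CD27 had 0.12, TNFRSF8, or CD30, had 0.08, and TNFRSF18, or GITR, had 0.02. TNFRSF11A, or RANK, had 0.11, TNFRSF12A, the receptor of TWEAK, had 0.10, and the orphan receptor TNFRSF19 had −0.00. All 11 had a limma adjusted p of 0.477 or more.

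Ligands and receptors were set side by side for 22 known pairs in which both were measured, from a list that does not hold every known pair. The 2 pairs of TNF had a called ligand and an uncalled receptor, at 2.02 against 0.06 for TNFRSF1A and 2.02 against 0.26 for TNFRSF1B. In 16 pairs both log2 fold changes were above 0, in 1 both were below 0, and in 5 they had opposite signs. With 78.4% of members above 0, many pairs would have both above 0 without any link between partners. Opposite signs held for TRAIL with each of its death receptors, 0.28 for TNFSF10 against −0.08 for TNFRSF10A and −0.19 for TNFRSF10B, whereas its decoy TNFRSF10D stood at 0.24. FASLG with FAS, TNFSF15 with TNFRSF25 and TNFSF11 with TNFRSF11A were the other 3, and in none of the 5 did either partner pass. Pairs that share a gene are not independent of one another.

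**Figure D3:**
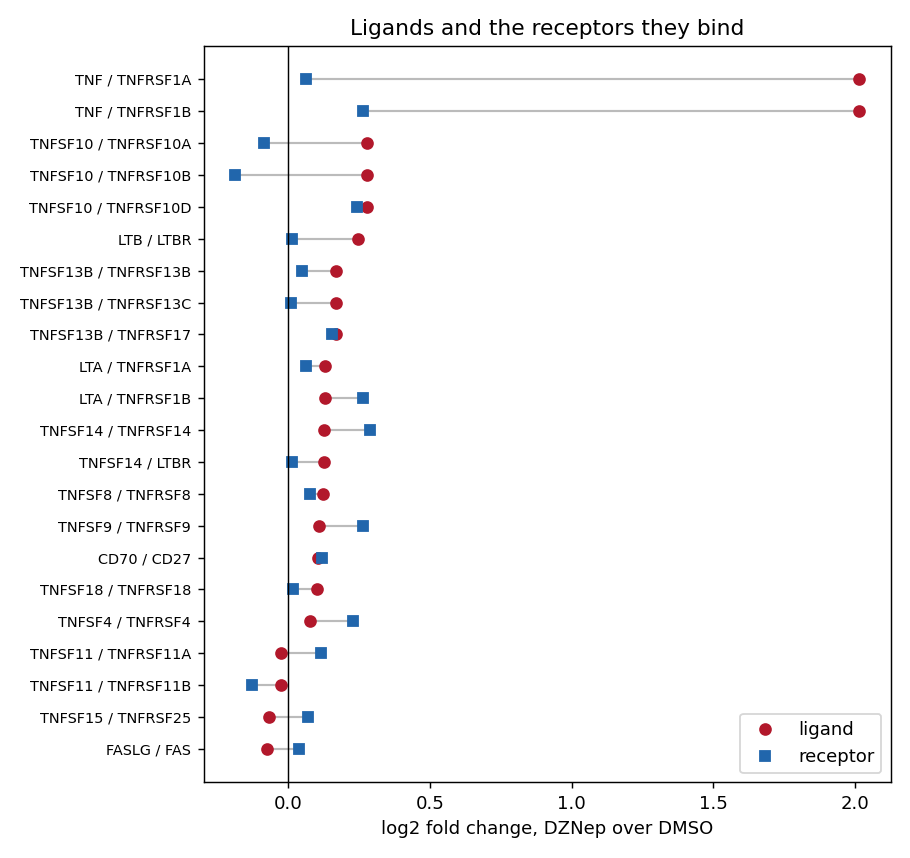
Log2 fold change of DZNep over DMSO (horizontal axis) for each of the 22 measured ligand and receptor pairs, 1 pair per row, ordered by the ligand. Circles are ligands, squares receptors, and a grey line joins each pair. The 2 rows of TNF have the ligand at 2.02 and its receptors at 0.06 and 0.26.

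Several members are neighbours in the genome besides the lymphotoxin stretch, by their order in the RefSeq gene table of GRCh38.p14. TNFSF9, CD70 and TNFSF14 follow one another and had log2 fold changes of 0.11, 0.11 and 0.13. FASLG, TNFSF18 and TNFSF4 had −0.07, 0.10 and 0.08. Adjacent receptors TNFRSF18 and TNFRSF4 had 0.02 and 0.23, and TNFRSF8 and TNFRSF1B had 0.08 and 0.26. The ligands TNFSF15 and TNFSF8, also adjacent, had −0.07 and 0.12. With at most 1 other gene between neighbours, TNFRSF10B, TNFRSF10D and TNFRSF10A had −0.19, 0.24 and −0.08. In the same way TNFRSF1A, LTBR and CD27 had 0.06, 0.01 and 0.12. None of these genes passed the test.

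Some superfamily genes fall outside the rule. TNFSF12 (TWEAK) and TNFSF13 (APRIL) share a probe set with their read-through transcript, and it read 8.25 and 8.50 with DZNep, against 8.05 and 8.19 with DMSO. Tested among all probe sets it showed a log2 fold change of 0.26 (adjusted p = 0.307 by limma). The decoy receptors TNFRSF6B and TNFRSF10C share probe sets with other genes as well, at −0.07 and −0.10 (limma adjusted p of 0.764 and 0.71). Of 5 superfamily genes with other kinds of symbol, EDA, EDAR, EDA2R, NGFR and RELT, 0 passed by limma, against 10.3% of all genes. An unadjusted p under 0.05 was found for 0 of the 5, against 22.2% of all genes. Their values lay between −0.05 and 0.26, with EDA2R, a receptor of ectodysplasin, at 0.26 and RELT, an orphan receptor of blood cells, at 0.06.

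Downstream of the receptors, 3 of 27 signalling genes rose and none fell, 11.1% against 10.3% of all genes, with a median log2 fold change of 0.13. The median was 0.060 without DMSO replicate 2. CFLAR encodes c-FLIP, which blocks caspase-8 at death receptors. It read 9.71 and 9.52 with DZNep, against 8.54 and 8.62 with DMSO, a 2.05-fold rise (log2 fold change 1.04 with SE 0.10, adjusted p = 0.000413 by limma). RIPK3, the kinase of necroptosis, read 8.04 and 8.18 with DZNep, against 7.47 and 7.27 with DMSO, a 1.67-fold rise (log2 fold change 0.74 with SE 0.11, adjusted p = 0.0028 by limma). Both groups of arrays lie well apart for these genes. CYLD, a deubiquitinase that limits NF-κB signalling, read 9.498 and 9.62 with DZNep, against 9.23 and 8.88 with DMSO. Its log2 fold change of 0.51 (SE 0.13, adjusted p = 0.0338 by limma) lost the call under median centring (adjusted p = 0.0572), with 16 subtracted before log2 (0.0782), without DZNep replicate 2 (0.109) and without DMSO replicate 2 (0.33, adjusted p = 0.077). The other 24, among them TRADD, FADD, TRAF1, TRAF3, CASP8 and TNFAIP3, did not pass.

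More of the genes listed as switched on by NF-κB after TNF had changed. Of 26 such genes, 8 rose and 1 fell, 34.6% against 10.3% of all genes, with a median log2 fold change of 0.22. NFKBIA rose 2.39-fold, reading 9.96 and 9.99 with DZNep, against 8.70 and 8.75 with DMSO (log2 fold change 1.26 with SE 0.09, adjusted p = 0.000102 by limma). TNFAIP2, a TNF-induced gene of myeloid cells, read 9.15 and 9.32 with DZNep, against 8.28 and 8.12 with DMSO, a 2.05-fold rise (log2 fold change 1.03 with SE 0.11, adjusted p = 0.000517 by limma). PTGS2, the inducible cyclooxygenase, rose 1.60-fold, at 7.40 and 7.51 with DZNep, against 6.88 and 6.67 with DMSO (log2 fold change 0.68 with SE 0.11, adjusted p = 0.0042 by limma). In the other direction CCL5, a chemokine that draws T cells and monocytes, fell, reading 8.35 and 8.48 with DZNep, against 9.71 and 9.55 with DMSO (log2 fold change −1.22 with SE 0.10, adjusted p = 0.000218 by limma). The other 17 did not pass, among them ICAM1 at 0.26, CXCL8 at 0.23, CXCL2 at −0.04 and NFKB1 at −0.16. The list was drawn up here and is not complete: TNFAIP3 (0.21) and TRAF1 (−0.0005), counted with the receptor-proximal genes, did not pass. The list also holds some genes known from earlier results of these data to have changed, so its count is not independent evidence. Whether the rise of TNF had any part in these changes was not tested.

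**Figure D4:**
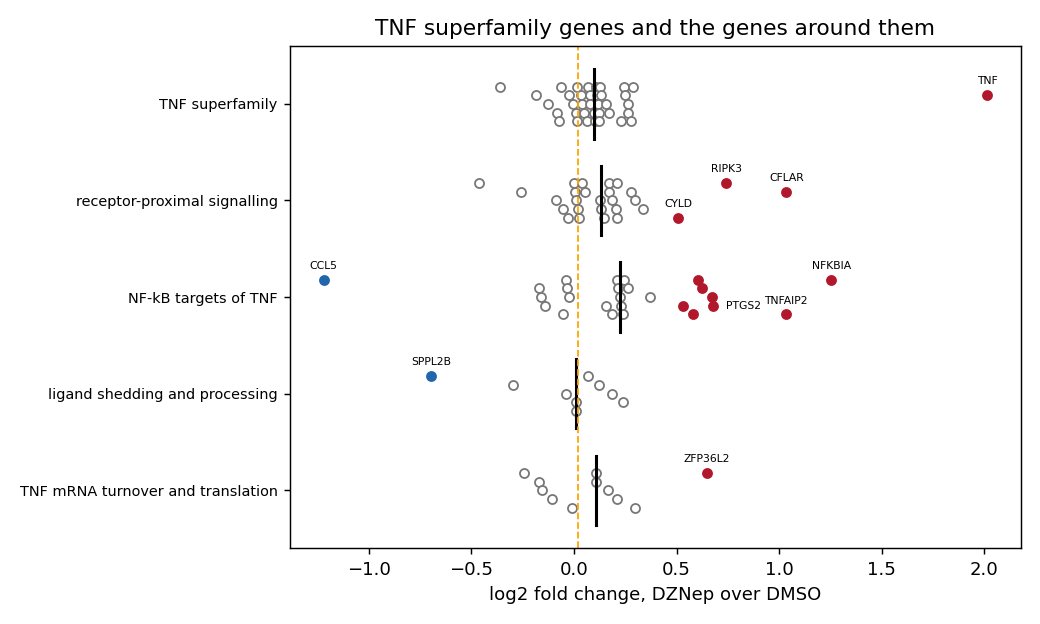
Log2 fold change of DZNep over DMSO (horizontal axis) for the TNF superfamily and for 4 lists of genes around it, 1 point per gene, filled red where higher and filled blue where lower at an adjusted p under 0.05, and open otherwise. Black bars are list medians, the dashed line is the median of all genes at 0.02, and height within a row has no meaning. TNF is apart from its family at 2.02, and the NF-κB targets have the most filled points, 8 higher and 1 lower.

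Genes that free ligands from the membrane, or that control the turnover or translation of TNF mRNA, mostly did not pass. Of 9 shedding and processing genes, 1 fell and none rose (11.1%, against 10.3% of all genes). It was SPPL2B, an intramembrane protease that cleaves the stub left after TNF is shed, at 8.56 and 8.62 with DZNep, against 9.34 and 9.23 with DMSO (log2 fold change −0.70 with SE 0.10, adjusted p = 0.0022 by limma). ADAM17, the main TNF-shedding protease, read 9.13 and 9.15 with DZNep, against 9.34 and 9.02 with DMSO, groups that overlap (−0.04, adjusted p = 0.902 by limma). Of 11 genes that control TNF mRNA turnover or translation, 1 rose and none fell (9.09%, against 10.3% of all genes). The RNA-binding protein gene ZFP36L2 read 11.13 and 11.27 with DZNep, against 10.57 and 10.53 with DMSO (log2 fold change 0.65 with SE 0.10, adjusted p = 0.0034 by limma). Its relative ZFP36, or tristetraprolin, which speeds the decay of TNF mRNA, read 8.59 and 8.63 with DZNep, against 8.38 and 8.25 with DMSO (0.30, adjusted p = 0.0963 by limma).

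As a check of the drug and the cells, EZH2 read 8.85 and 8.996 with DZNep, against 9.70 and 9.66 with DMSO, a fall that passed (limma, log2 fold change −0.76, adjusted p = 0.0016), and AHCY, the drug's enzyme target, had −0.43 (adjusted p = 0.0505). These are RNA readings, and neither EZH2 protein nor the activity of the AHCY enzyme was measured. Of 10 myeloid genes measured as markers of the line, 2 were higher and 1 was lower with DZNep, 30% against 10.3% of all genes (limma). FLT3, the receptor kinase mutated in this line, fell, at 10.92 ± 0.02 with DZNep and 11.87 ± 0.10 with DMSO (SD, n = 2 arrays each), a log2 fold change of −0.94 with adjusted p = 0.000535 by limma. LYZ, the monocyte lysozyme, and CSF1R, the receptor of macrophage colony-stimulating factor, rose, by log2 fold changes of 0.53 and 0.47 (limma adjusted p of 0.0114 and 0.0128). Mean log2 intensities of the 10 ran from 7.97 to 12.77 with DZNep and from 7.52 to 12.24 with DMSO, with CSF1R and ITGAM, an integrin of myeloid cells, near the low end. The markers did not move as 1: of the 10, 5 had log2 fold changes above 0 and 5 below, with a median of −0.04. Below 0 without passing were CD68 at −0.38 and the integrin genes ITGAM and ITGAX at −0.22 each. Whether the moves of these markers had a part in the rise of TNF was not tested. Of 32 markers of T, B, natural killer, erythroid, megakaryocyte, epithelial and fibroblast cells, 0 passed by limma, against 10.3% of all genes. At an unadjusted p under 0.05 the count was 4 of the 32 (12.5%, against 22.2% of all genes). Mean log2 intensities of T cell markers lay between 4.96 and 7.34 with DZNep and between 4.90 and 7.28 with DMSO, below the median gene. Above the median gene in both groups were 4 of the 32. The brightest was NCAM1, a natural killer cell marker, at 9.33 ± 0.06 with DZNep and 9.52 ± 0.17 with DMSO (SD, n = 2 arrays each). The others were the keratin gene KRT8, at 8.04 with DZNep and 7.75 with DMSO, the collagen gene COL1A1, at 7.90 with DZNep and 7.79 with DMSO, and the B cell factor PAX5, at 7.55 with DZNep and 7.79 with DMSO.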

How the data were processed

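Total RNA of MOLM-14 cells was amplified, biotin-labelled and hybridised to 4 arrays, 2 per group, with groups and replicate numbers taken from the titles. The values are deposited as linear intensities, 1 for each probe set on each array, and the submitters' processing notes credit them to RMA run by the authors. The version of RMA is not given in the sources used here. On every array the smallest intensity was 18.1 to 18.5, a floor that can shrink folds of dim genes.

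Here log2 of the deposited intensity was taken without a pseudocount, and no dim gene was removed. Of 28869 probe sets, 19310 carry 1 symbol, 1752 several and 7807 none listed, giving 18377 genes. The test was limma 3.58.1 under R 4.3.3, two-sided, by lmFit and eBayes on group alone, and p-values were adjusted by Benjamini-Hochberg across all genes, with calls at 0.05. Residual degrees of freedom were 2 per gene and prior ones 7.18. With 2 arrays a group, the smallest p of an exact permutation test is 0.333. The script was tested on simulated data.

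Members, lists and alternatives were chosen with earlier results of these data known. Every member is accounted for; of each signalling list up to 4 called genes with the largest change are named, or 2 where none passed, and further genes named beside them were chosen after their values were seen. Entrez IDs of all 37 members were found in the RefSeq gene table of GRCh38.p14, and 26 members matched the RefSeq promoter table of that build.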

Additional observations from a re-analysis of the deposited data

How the results depend on the processing

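TNF was called higher under all 14 alternatives, with log2 fold changes of 1.98 under median centring and 2.13 with 16 subtracted, and 1.90 to 2.13 when 1 array was left out. It was the only member called under median centring, cyclic loess, an intensity trend, the mean over probe sets, 16 subtracted, the replicate block and without the dimmest 25% of genes. A second member passed without the dimmest 50% (2 higher, both ligands) and after quantile normalization (2 higher, 1 of them an other receptor). Leaving out 1 array gave 1 to 3 members higher and 0 to 1 lower, 0 to 2 other receptors higher and 0 to 1 death receptors lower. With the replicate number as a block (replicate block), the members stayed at 1 higher and 0 lower, and 754 genes were higher and 1353 lower, but the receptor-proximal list had 1 lower. Same-numbered arrays tended to deviate in opposite ways (correlation −0.22), which gives no sign that the numbers pair the samples but cannot exclude it. A crossed pairing, added after seeing the data, called 1034 genes higher, 1 member (a death receptor) lower and 1 receptor-proximal gene lower.

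The median of all genes, 0.02, became −0.0061 without the dimmest 50%, −0.011 under median centring, 0.0049 after quantile normalization, −0.0026 after cyclic loess, and −0.011 to 0.042 when 1 array was left out. With 1 array left out, counts over all genes ran from 336 (without DZNep replicate 2) to 776 higher and from 734 (without DZNep replicate 1) to 1662 lower, and the members' median from 0.041 (without DMSO replicate 1) to 0.099. The 2 decoy receptors had a median of 0.24 without the dimmest 25% or 50%, which leave TNFRSF10D alone, and 0.027 under median centring. The NF-κB targets' median was 0.19 under median centring, 0.25 with 16 subtracted and 0.21 to 0.26 with 1 array left out.

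Receptor-proximal genes had 5 higher after quantile normalization and 1 lower with an intensity trend, and 2 to 3 higher, 0 to 1 lower and a median of 0.060 to 0.19 with 1 array left out. The ligands' median then ran from 0.060 to 0.14, that of other receptors from 0.032 to 0.21 and that of decoy receptors from 0.032 to 0.086. Shedding genes had 2 lower without the dimmest 50%, 1 higher and 2 lower with an intensity trend, and with 1 array left out 0 to 1 higher, 1 to 2 lower and a median of −0.0073 to 0.11. The mRNA turnover list had 2 higher without the dimmest 50% or after quantile normalization, 1 lower with an intensity trend, and with 1 array left out 0 to 1 lower and a median of −0.0085 to 0.14.

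Members near 0 changed sign without a call: CD40 to −0.0059 and TNFRSF13C to −0.0051 under cyclic loess, and TNFRSF18 to −0.016, LTBR to −0.018 and TNFRSF13C to −0.020 under median centring. With 1 array left out the ranges that cross 0 were −0.13 to 0.084 for TNFSF11, −0.0033 to 0.13 for TNFRSF1A, −0.028 to 0.11 for FAS, −0.0032 to 0.24 for CD27, −0.052 to 0.21 for TNFRSF8, −0.17 to 0.27 for TNFRSF13B, −0.0039 to 0.076 for CD40, −0.18 to 0.21 for TNFRSF18, −0.024 to 0.054 for LTBR and −0.11 to 0.099 for TNFRSF19. The cause of these moves was not tested. Dim probe sets limit what can be seen, since signal over background is unknown.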
